A study of Bos taurus
Mus musculus and Bos taurus and Mus musculus with 5 samples.

Results

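The genes of the nuclear pore, the nuclear transport receptors, the Ran cycle and the nuclear lamina were followed in the bovine and the mouse nuclei of heterokaryons, fused cells in which nuclei of both parents lie in 1 cytoplasm. Members were chosen by name: NUP followed by digits, KPNA, KPNB, IPO or XPO followed by a digit, LMNB, and the single genes LMNA, RAN, RANBP1, RANBP2, RANGAP1, RCC1, TPR, NXF1, CSE1L, TNPO1 and AAAS. The rule found 47 of the 13923 genes of the bovine table and 53 of the 24543 genes of the mouse table, 100 of 38466 in all. Of these names 46 stood in both tables. NUP58 was found by this name for cattle alone, since the mouse table holds the gene under its older symbol Nupl1, which the rule does not take, and Nup107, Nup98, Nup210l, Nup62cl, Ipo9, Xpo5 and Xpo6 were found for the mouse alone.

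The parents were bovine fetal fibroblasts (bFF), grown from a single male fetus of unknown genetic background in serum medium at 38.5 °C, and embryonic stem cells (mESC) of a C57BL mouse line, kept at 37 °C over a layer of irradiated feeder fibroblasts from mouse. The stem cell medium held the cytokine product ESGRO, 1 µM of the MEK inhibitor PD0325901 and 3 µM of the GSK3 inhibitor CHIR99021. Both kinds of cell shared a well for 4 h before polyethylene glycol was applied for 2 min, and the fused cultures then stayed at 37 °C in stem cell medium with ESGRO but neither inhibitor. Fused cells were collected at 24, 48 and 72 h, and unfused bFF and mESC were the controls. Each of the 5 groups was 1 library of 200 sorted cells, so medium, inhibitors, temperature and the presence of the other cell type cannot be told apart from fusion. The bovine table held 2634269 reads in bFF and 982769 to 1541793 in the heterokaryons. The mouse table held 3446461 reads in mESC and 1731084 to 2427089 in the heterokaryons.

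The nuclear pore is built of rings of nucleoporins around a channel filled with proteins rich in phenylalanine-glycine repeats. Cargo with a nuclear localisation signal is bound by an importin alpha (the KPNA genes), which is carried through the channel by importin beta (KPNB1), while exportins carry cargo out, and the GTPase Ran sets the direction of both. Beneath the inner nuclear membrane the lamins form a meshwork. In mammals the B-type lamins are made by nearly all cells, whereas the A-type lamins rise with differentiation and are low in embryonic stem cells. KPNA2 is known as the importin alpha that dominates in mouse embryonic stem cells.

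The lamin transcripts differ at the end of the coding sequence, and 2 of these ends are shown, 1 of an A-type and 1 of a B-type lamin, because the lamin values below set these kinds side by side. The last 60 coding bases are given from GENCODE M21 on GRCm38, with the last 4 codons before the stop codon in capitals. Lamin C (574 codons) comes from Lmna on the minus strand of chromosome 3, and its printed end lies in exon 10 of its transcript (88483297 to 88483356). Lmnb2 (596 codons) lies on the minus strand of chromosome 10, and its printed end is in exons 11 (80903212 to 80903229) and 12 (80902859 to 80902900).
Lmna, lamin C: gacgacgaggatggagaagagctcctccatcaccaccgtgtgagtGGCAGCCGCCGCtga
Lmnb2: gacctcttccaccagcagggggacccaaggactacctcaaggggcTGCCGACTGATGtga
The capitals of lamin B2 open with TGC, the codon of the cysteine to which a farnesyl group is attached, and those of lamin C do not. This holds for the 2 transcripts shown and does not describe A-type or B-type lamins as a whole.

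Few of these genes passed the test, 1 in each nucleus. Bovine LMNA rose and mouse Kpna2 fell in heterokaryons. The test was edgeR's quasi-likelihood test of the 3 heterokaryon libraries against the 1 control, with a Benjamini-Hochberg adjusted p under 0.05 over all genes with at least 10 CPM (reads scaled as RPM, with TMM-adjusted library sizes) in at least 1 library. Its p-values rest on the spread between libraries of different times, estimated with information shared across genes. The lone control is assumed to vary like these libraries. Among 42 bovine members tested 1 was called higher and 0 lower, against 4.37% and 4.77% of the 7376 bovine genes tested. Among 50 mouse members tested 0 were called higher and 1 lower, against 0.576% and 0.406% of 8857 genes. DESeq2 gave the same 4 counts, but leaving out 1 library changed them. Without the 24 h library 5 bovine members were higher, 1 bovine member was lower, 2 mouse members were higher and 5 lower. Without the 48 h library there were 0 calls in both tables, and without the 72 h library 1 bovine and 1 mouse member were higher and 7 mouse members lower. At an unadjusted edgeR p under 0.05 there were 4 bovine members higher and 1 lower (all genes 11.3% and 12.8%). The higher 4 were LMNA, NUP35, AAAS and IPO7. IPO8 was the lower one, here and without the 24 h library. It reached 10 CPM in bFF alone, so the filter partly fixed its direction. Among mouse members there were 3 higher and 14 lower (all genes 6.14% and 10.3%). The higher 3 were Kpnb1, Kpna4 and Nup205, and most of the Kpna4 reads may not be mouse reads, as given below. The lower 14 were Kpna2, Nup62, Nup107, Cse1l, Kpna1, Nup133, Rcc1, Xpo5, Nup160, Nup93, Nxf1, Nup85, Aaas and Ipo11.

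The median edgeR log2 fold change was 0.13 over the bovine members and -0.03 over all bovine genes tested, and it was -0.23 over the mouse members and -0.09 over all mouse genes. The scaling mattered for the bovine table. With library totals in place of TMM the median of all bovine genes went from -0.07 to -0.20 at 48 h and from -0.02 to -0.19 at 72 h, and that of the members from -0.01 to -0.14 and from 0.13 to -0.05. Of the 42 bovine members 15 were above bFF in all 3 heterokaryon libraries (all genes 31.0%) and 10 were below (all genes 36.6%). IPO13, LMNB1, NUP188 and XPO4 reached the minimum of 10 CPM in heterokaryon libraries alone and IPO8 in bFF alone, so the filter partly fixed their directions. Without the first 4, 12 of 38 bovine members were above in all 3. Xpo7 was the 1 mouse member to reach the minimum in heterokaryons alone. Of the 50 mouse members 9 were above mESC in all 3 (all genes 25.3%) and 25 were below (all genes 38.8%). The members together took 0.327% of bovine reads in bFF and 0.389%, 0.372% and 0.430% at 24, 48 and 72 h. They took 0.876% of mouse reads in mESC and 0.720%, 0.735% and 0.772% in the heterokaryons.

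**Figure D1:**
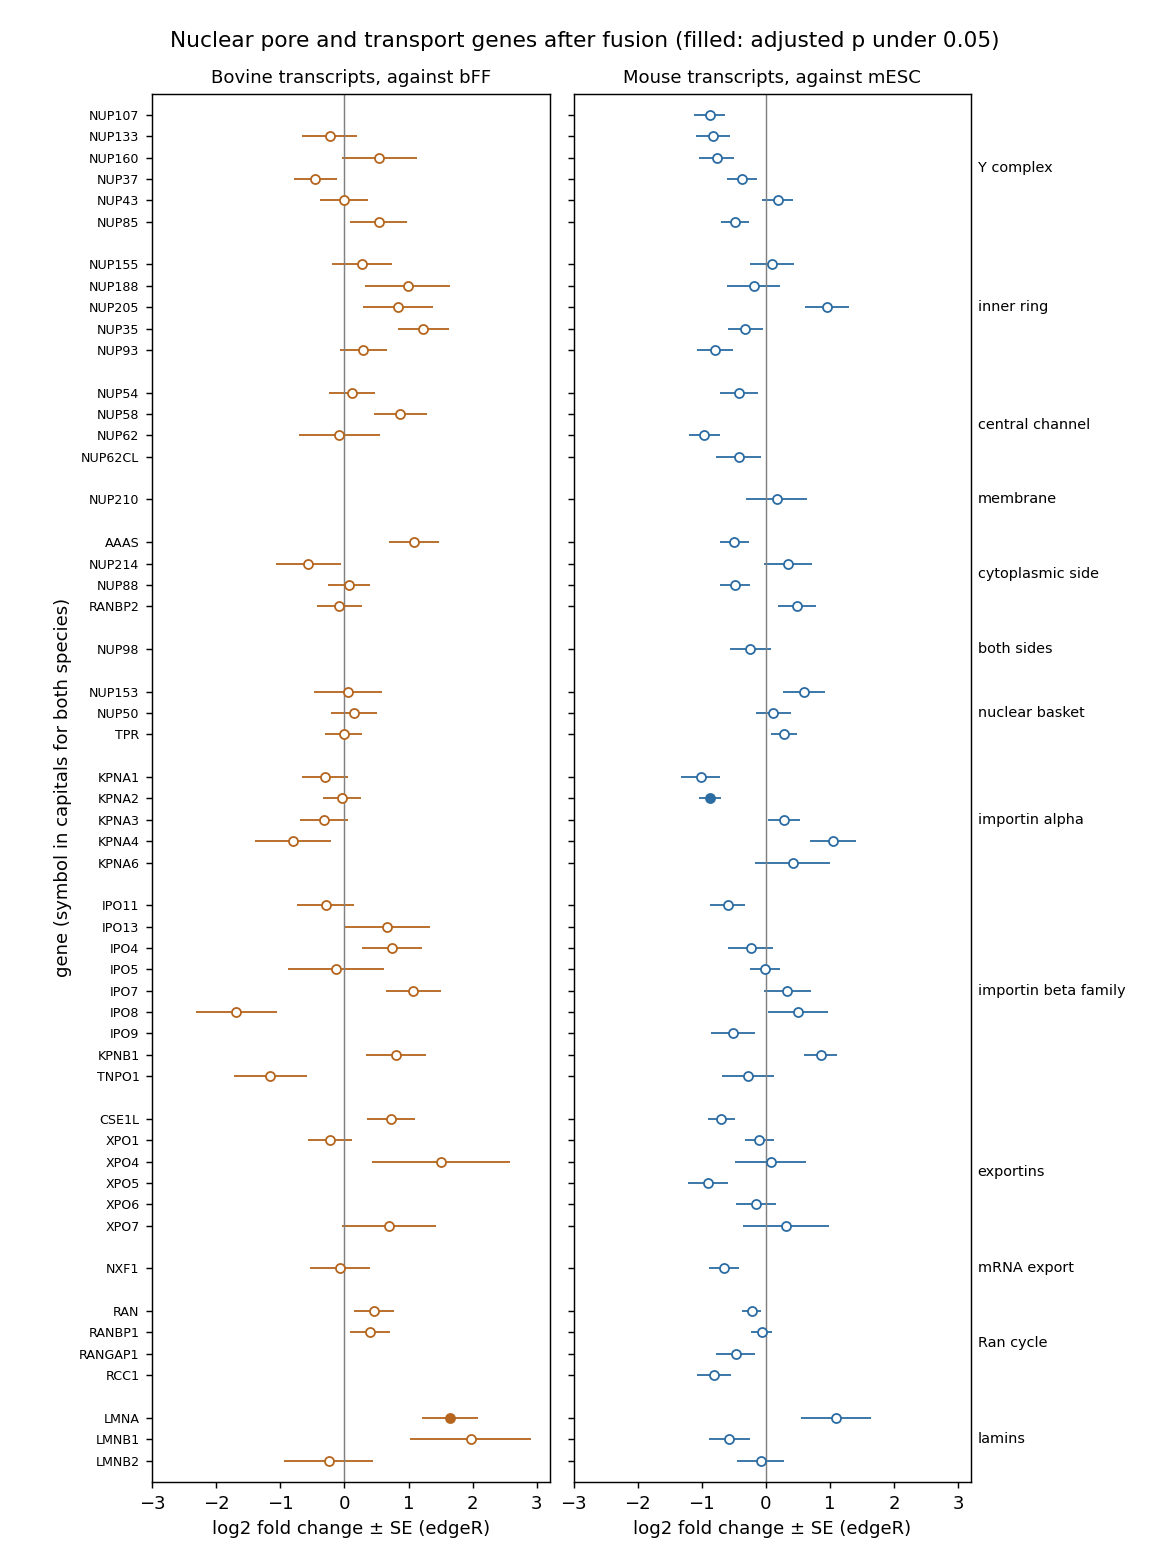
EdgeR log2 fold changes of all tested members, bovine (left) and mouse (right), grouped by role; points are heterokaryons against the control of the same species, bars are 1 SE, and filled points are called at an adjusted p under 0.05. Bovine LMNA (1.65) and mouse Kpna2 (-0.88) are the called members.

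Bovine LMNA rose in the heterokaryons. This gene of lamins A and C (bosTau8 chromosome 3, start 14697382) had 440 reads in bFF and 298, 703 and 936 in the heterokaryons at 24, 48 and 72 h. Scaled to the library these were 167 reads per 1000000 reads of the table (RPM; 95% Poisson interval 152 to 183) in bFF, then 303, 528 and 607 RPM (569 to 647 at 72 h). The level was thus above the control at every time and highest at 72 h. The log2 fold change was 1.65 ± 0.44 (SE, 3 libraries against 1), with an edgeR adjusted p of 0.0354. Over 9 alternative settings the adjusted p ran from 3.71e-10 to 0.0596, and 7 of them kept the call. It was lost with a minimum of 50 CPM (0.0523) and without the 48 h library (0.0596).

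Mouse Lmna (mm10 chromosome 3, start 88481148) had 85 reads in mESC and 238, 56 and 55 in the heterokaryons. This is 24.7 RPM in mESC and 98.1, 32.3 and 30.0 RPM afterwards, so the 24 h library stood apart from the other libraries, whose 95% intervals overlapped that of mESC (19.7 to 30.5 RPM). The log2 fold change over the 3 libraries was 1.09 ± 0.55 (edgeR adjusted p = 0.329). None of the reads of the bFF library were listed as mouse Lmna, which allows up to 3 reads of its 48480 in the mouse table. Each listed Lmna transcript had its highest count at 24 h. The lamin A transcript went from 38 reads in mESC to 110 at 24 h, 23 at 48 h and 27 at 72 h. The lamin C transcript had 29, 90, 24 and 16 reads, and a shorter transcript 18, 38, 9 and 12. The rule by which reads common to these transcripts were divided is not stated.

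The mix of lamin reads was followed across the libraries of each species. These shares are not scaled by transcript length, and the bovine and mouse mixes were not tested against each other. LMNA made up 91.7% of bovine lamin reads in bFF (95% exact binomial interval 88.8 to 94.0) and 93.1%, 97.2% and 96.1% in the heterokaryons. Its mouse share was 24.5% in mESC (20.1 to 29.4), 66.1% at 24 h (61.0 to 71.0), 35.4% at 48 h and 29.3% at 72 h. Bovine LMNB1, a B-type lamin, had 8 reads in bFF and 14, 9 and 20 in the heterokaryons, with a log2 fold change of 1.97 ± 0.94 (edgeR adjusted p = 0.226). Of these heterokaryon reads an estimated 10.1%, 11.2% and 5.33% were mouse reads listed as bovine. Mouse Lmnb1 had 49.3 RPM in mESC and 29.3, 35.2 and 38.7 RPM in the heterokaryons, all below the control (-0.57 ± 0.32, edgeR adjusted p = 0.384). LMNB2 missed the threshold in both tables, at -0.24 ± 0.69 in the bovine and -0.08 ± 0.37 in the mouse fit.

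**Figure D2:**
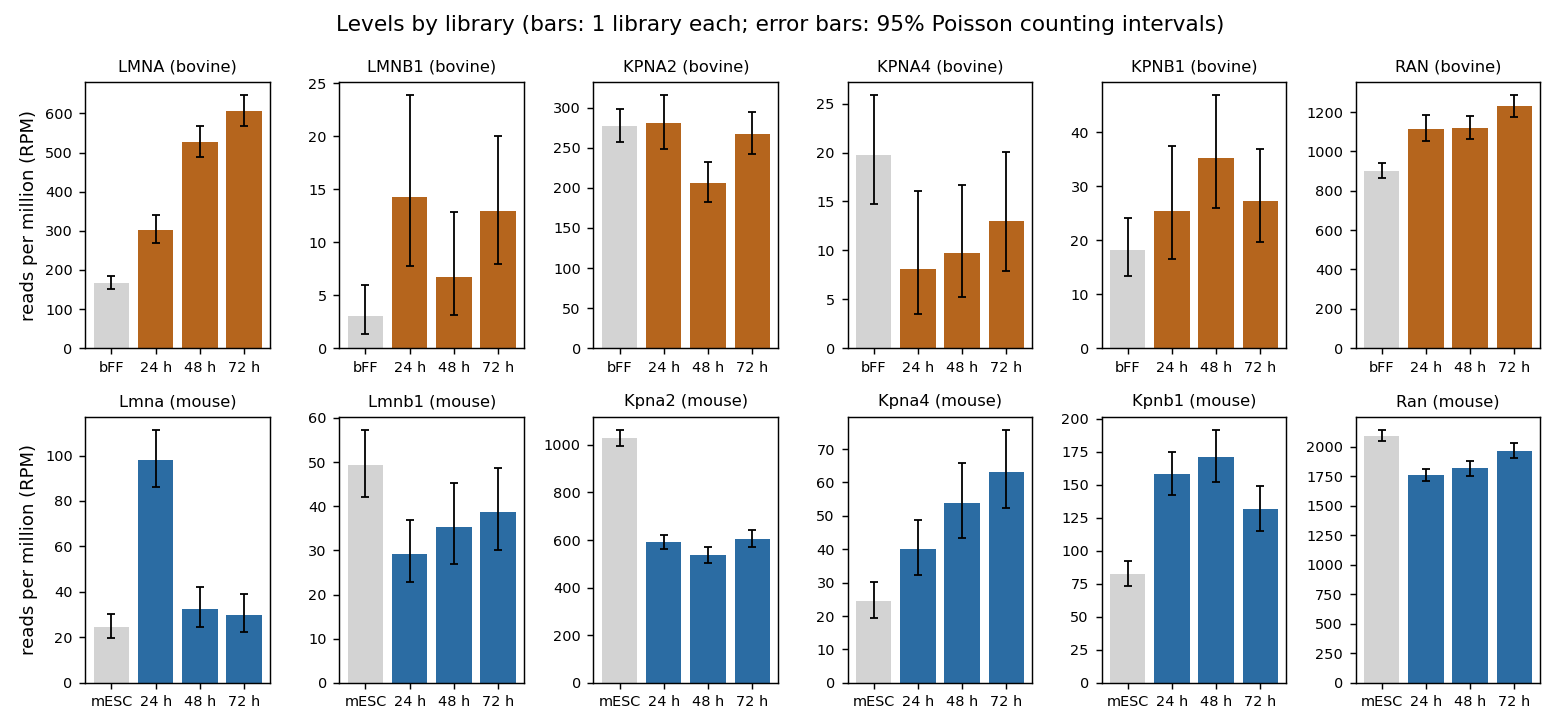
RPM (y axis, from 0) of 6 members in the control and at 24, 48 and 72 h after fusion, bovine above and mouse below; each bar is 1 library and error lines are 95% Poisson intervals. Bovine LMNA goes from 167 to 607 RPM, mouse Lmna peaks at 98.1 RPM at 24 h, and mouse Kpna2 drops from 1029 to between 537 and 605 RPM.

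Among the importin alpha genes the main adaptor of the stem cell fell in the mouse nucleus. Mouse Kpna2 (mm10 chromosome 11, start 106988629) had 3546 reads in mESC and 1435, 929 and 1111 in the heterokaryons. The levels were 1029 RPM (995 to 1063) in mESC and 591, 537 and 605 RPM, so each heterokaryon library was well below the control and the 3 lay close together. The log2 fold change was -0.88 ± 0.17 with an edgeR adjusted p of 0.0210. Across 9 alternatives the adjusted p ran from 0.000779 to 0.0796 and 8 kept the call. The exception was the fit without the 48 h library. Bovine KPNA2 had 277 RPM in bFF and 281, 206 and 268 RPM in the heterokaryons, on both sides of the control (-0.04 ± 0.30, edgeR adjusted p = 0.958).

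Mouse Kpna1 had 82.4 RPM in mESC and 33.0, 39.9 and 53.4 RPM in the heterokaryons, all lower, with a log2 fold change of -1.02 ± 0.31 that missed the threshold (edgeR adjusted p = 0.128) and passed it without the 24 h library (0.0488) or the 72 h library (0.0276). Mouse Kpna3 stood at 80.7 RPM and then at 100.1, 97.0 and 106 RPM (0.28 ± 0.25). All 4 bovine importin alpha genes tested had a log2 fold change below 0, from -0.80 ± 0.59 for KPNA4 to -0.04 for KPNA2 (0.011 with DESeq2). KPNA1, KPNA3 and KPNA4 were below bFF in all 3 libraries, as were 36.6% of all bovine genes tested. None of the 4 passed the test. KPNA6 had 3 reads in bFF and 3, 3 and 0 afterwards and was not tested. KPNA7, an importin alpha of oocytes and early embryos, had 0 reads in every library of both tables, so that up to 3 reads a library are allowed.

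KPNA2 accounted for 83.9% of mouse importin alpha reads in mESC (82.7 to 85.0). In the heterokaryons it accounted for 75.7% (73.7 to 77.6), 72.0% (69.5 to 74.5) and 72.5% (70.2 to 74.7). Mouse Kpna4 enters that share, and most of its reads may not be mouse reads. Kpna4 had 84 reads in mESC and 97, 93 and 116 in the heterokaryons, or 24.4 RPM and then 40.0, 53.7 and 63.2 RPM (1.05 ± 0.36, edgeR adjusted p = 0.170). Yet 160 reads of the unfused bFF library, which holds no mouse cell by its label, were listed as mouse Kpna4, against 52 listed as bovine KPNA4. If bovine cells gave them at the same rate after fusion, they were 61.5%, 87.0% and 80.7% of the mouse Kpna4 reads at 24, 48 and 72 h. With them subtracted the log2 change of Kpna4 turned to -1.10 (edgeR adjusted p = 0.289), and the Kpna2 share was 78.3%, 77.1% and 77.5%, still below mESC. In the bovine table the KPNA2 share was 64.7% in bFF (61.8 to 67.5) and 74.4%, 62.6% and 71.2% in the heterokaryons, above and below the control. The interval at 48 h (57.9 to 67.2) overlapped that of bFF. After subtraction of wrongly listed reads the heterokaryon shares were 77.8%, 64.4% and 72.7%. Bovine reads listed as mouse Kpna4, such as the 160 of bFF, are not counted in any of these bovine shares.

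**Figure D3:**
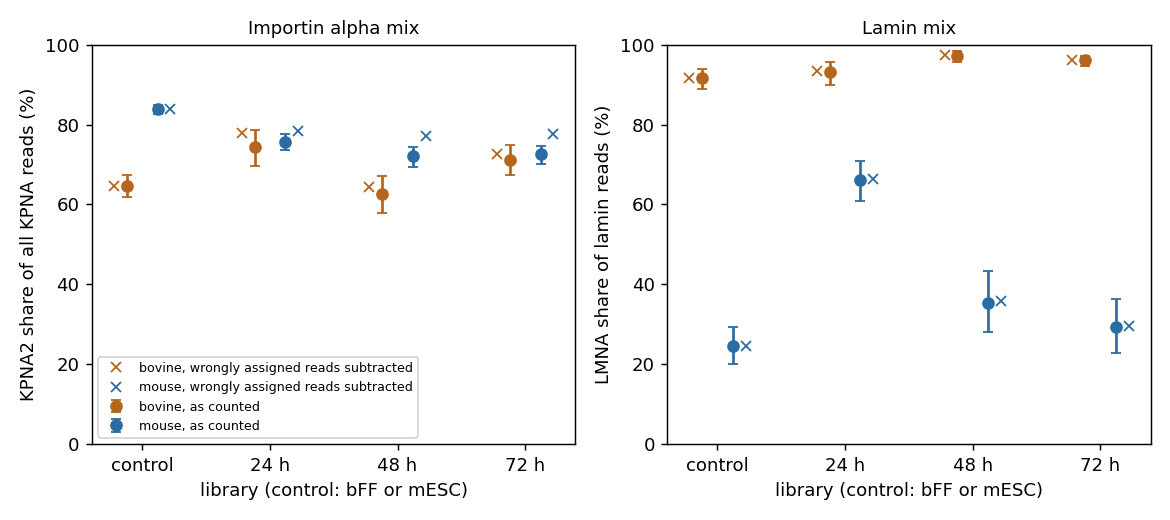
Share (%) of importin alpha reads that belong to KPNA2 and of lamin reads that belong to LMNA, in each library of the bovine and mouse tables; circles are libraries with 95% exact binomial intervals, and crosses are the shares after subtraction of wrongly listed reads. The mouse KPNA2 share goes from 83.9% to between 72.0% and 75.7%, and the mouse LMNA share stands at 66.1% at 24 h alone among values of 24.5% to 35.4%.

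Importin beta, KPNB1, carries the importin alpha with its cargo and also binds some cargo directly. Mouse Kpnb1 had 82.4 RPM in mESC and 158, 171 and 131 RPM in the heterokaryons, all above the upper limit of the control (92.6 RPM). Its log2 fold change was 0.85 ± 0.26, with an edgeR adjusted p of 0.123 and a DESeq2 adjusted p of 0.0584. Without the 24 h or the 72 h library edgeR called it (adjusted p = 0.0105 and 0.0360). Bovine KPNB1 had 18.2 RPM in bFF and 25.4, 35.3 and 27.2 RPM in the heterokaryons (0.80 ± 0.47, edgeR adjusted p = 0.330). Thus KPNB1 was above its control in all 3 libraries of both tables without a call in either.

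The single-protein carriers of the importin beta family spread widely in the bovine table. IPO7, which imports ribosomal proteins and histones among other cargo, had 18.2 RPM in bFF and 34.6, 35.3 and 37.0 RPM in the heterokaryons (1.08 ± 0.43, edgeR adjusted p = 0.149). IPO8, its close relative, had 61 reads in bFF and 9, 10 and 6 in the heterokaryons, or 23.2 RPM and then 9.16, 7.51 and 3.89 RPM. Its log2 fold change was the lowest of all bovine members, -1.68 ± 0.64, and missed the threshold (edgeR adjusted p = 0.124). TNPO1 or transportin, the carrier of many RNA-binding proteins, went from 22.8 RPM to 12.2, 7.51 and 9.08 RPM (-1.16 ± 0.57, edgeR adjusted p = 0.240). The mouse orthologs had other patterns. Ipo8 had 12.5, 22.2, 19.6 and 12.5 RPM and Tnpo1 19.4, 17.3, 14.4 and 17.4 RPM. The lowest mouse carrier of the family was Ipo11 (-0.60 ± 0.27, edgeR adjusted p = 0.292), at 95.8 RPM in mESC and 57.3, 60.7 and 77.9 RPM in the heterokaryons.

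Of the exportins CSE1L returns importin alpha to the cytoplasm, XPO1 is the receptor for the leucine-rich export signal, and XPO5 exports microRNA precursors. Mouse Cse1l had 364 RPM in mESC and 202, 228 and 266 RPM in the heterokaryons, all below the control interval of 344 to 384 RPM (-0.69 ± 0.21, edgeR adjusted p = 0.127). Bovine CSE1L had 79.3 RPM in bFF and 117, 89.3 and 156 RPM, all above the control value (0.72 ± 0.38, edgeR adjusted p = 0.271). Bovine XPO1 had 74.4 RPM in bFF and 56.0, 57.1 and 64.2 RPM (-0.22 ± 0.34, edgeR adjusted p = 0.748), with an estimated 15.4% of its 24 h reads from the mouse. Mouse Xpo1 had 175, 191, 162 and 149.8 RPM (-0.10 ± 0.23). Mouse Xpo5 had 188 reads in mESC and 74, 56 and 50 in the heterokaryons, the lowest log2 change among mouse exportins (-0.90 ± 0.31, edgeR adjusted p = 0.168). The highest bovine exportin, XPO4 (1.50 ± 1.07), rested on 9, 8, 5 and 23 reads. NXF1, the receptor that exports messenger RNA, was at -0.65 ± 0.23 in the mouse (edgeR adjusted p = 0.188), with 159 RPM in mESC and 96.0, 101 and 117 RPM. In the bovine table it lay on both sides of bFF (-0.07 ± 0.47).

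The Ran cycle supplies the gradient that directs transport. Bovine RAN (bosTau8 chromosome 10, start 40529290) had 902 RPM in bFF and 1116, 1120.1 and 1230.4 RPM in the heterokaryons, each above the control interval of 866 to 939 RPM. Its log2 fold change was 0.47 ± 0.31 (edgeR adjusted p = 0.395). Mouse Ran (mm10 chromosome 5, start 129020156) had 2094 RPM in mESC and 1758, 1817 and 1966 RPM, each below the control interval of 2046 to 2143 RPM (-0.22 ± 0.15, edgeR adjusted p = 0.485). Counting intervals were narrow here, but they cover counting error alone. The edgeR p-values also take in the spread between libraries, estimated with information shared across genes. RANBP1, which helps to take Ran off exported complexes, followed the same direction in the bovine table with 432 RPM and then 540.3, 453 and 595 RPM. In the mouse it lay at 1242, 1191, 1288 and 1184 RPM, on both sides of the control. Rcc1, the exchange factor that charges Ran with GTP on chromatin, had 114 RPM in mESC and 67.2, 57.2 and 76.8 RPM (-0.81 ± 0.26, edgeR adjusted p = 0.145; 0.0409 without the 24 h library). Bovine RCC1 had 5, 4, 0 and 5 reads and could not be tested. Bovine RANGAP1, the activator that makes Ran hydrolyse GTP in the cytoplasm, had 0 reads in bFF and 2, 4 and 11 in the heterokaryons, too few to pass the filter.

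Among the scaffold nucleoporins the inner ring holds the other rings to the membrane. All 5 bovine inner ring genes had a log2 fold change above 0 and 4 were above bFF in all 3 libraries (all bovine genes 31.0%), with a median of 0.83, but none was called. NUP188 is 1 of these 4 and reached the minimum in heterokaryons alone. NUP35 had 69 reads in bFF and 52, 83 and 86 in the heterokaryons, or 26.2 RPM and then 52.9, 62.3 and 55.8 RPM, each above the control interval (20.4 to 33.1 RPM). Its log2 fold change was 1.23 ± 0.39 (edgeR adjusted p = 0.0691), and without the 24 h library it was called (adjusted p = 0.00230). NUP188 was at 0.99 ± 0.66 from 23, 23, 13 and 25 reads and NUP205 at 0.83 ± 0.55 from 37, 21, 23 and 47 reads. NUP155, the lowest of the 5 (0.27 ± 0.47), was above bFF mainly at 24 h, with 24.3 RPM and then 40.7, 22.5 and 20.8 RPM. The mouse inner ring was split. Nup205 had 28.4 RPM in mESC and 63.0, 60.1 and 46.8 RPM (0.95 ± 0.34, edgeR adjusted p = 0.180). Nup93 had 181 RPM and then 79.1, 105 and 141 RPM (-0.79 ± 0.27, edgeR adjusted p = 0.171; 0.0223 without the 72 h library), lowest at 24 h and closest to mESC at 72 h.

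The Y complex forms the outer rings of the pore. Of its 6 mouse genes, 5 were below mESC in all 3 heterokaryon libraries (all mouse genes 38.8%), and none was called. Their median log2 fold change was -0.62 (all mouse genes -0.09). Nup107 had 522 reads in mESC and 191, 140 and 176 in the heterokaryons, at 151 RPM and then 78.7, 80.9 and 95.8 RPM. Its log2 fold change was -0.88 ± 0.24 (edgeR adjusted p = 0.0944), and it was called without the 24 h library (0.0251) and without the 72 h library (0.0320). Nup133 (-0.83 ± 0.27) and Nup160 (-0.77 ± 0.27) had adjusted p-values of 0.143 and 0.178 in the same edgeR fit, and Nup133 was called without the 72 h library. Nup43 was the exception at 0.18 ± 0.24. The 5 bovine genes of the complex centred on 0 (median -0.00), between NUP37 (-0.45 ± 0.33) and NUP160 (0.55 ± 0.59). Bovine NUP160 was high in the 24 h library alone, with 17.8 RPM and then 43.8, 16.5 and 15.6 RPM.

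The central channel carries the repeat proteins that form the barrier. Mouse Nup62 had 513 reads in mESC and 170, 147 and 149 in the heterokaryons, or 149 RPM and then 70.0, 84.9 and 81.1 RPM. All 3 lay below the control interval of 136 to 162 RPM, and the log2 fold change of -0.96 ± 0.24 came close to the threshold (edgeR adjusted p = 0.0698). It was called without the 24 h library (0.0136) and without the 72 h library (0.0317). Its partner Nup54 was at -0.42 ± 0.30 and the related Nup62cl at -0.43 ± 0.35. Bovine NUP62 had 42, 7, 25 and 23 reads and a log2 fold change of -0.08 ± 0.63, while NUP58, another channel protein, had 32.6 RPM in bFF and 76.3, 39.0 and 53.8 RPM (0.87 ± 0.42, edgeR adjusted p = 0.226). The membrane nucleoporin Nup210, which is known to appear in myogenic and neural differentiation of mouse cells, had 46, 38, 21 and 34 mouse reads, a log2 fold change of 0.17 ± 0.47. In the bovine table it had 2, 3, 3 and 0 reads.

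On the cytoplasmic side AAAS, which encodes the pore protein ALADIN, had 93 bovine reads in bFF and 57, 96 and 119 in the heterokaryons. The levels were 35.3 RPM and then 58.0, 72.1 and 77.2 RPM, all above the control interval of 28.5 to 43.2 RPM (1.09 ± 0.39, edgeR adjusted p = 0.108). Mouse Aaas had 165 RPM in mESC and 112, 128 and 123 RPM in the heterokaryons, all below the control (-0.49 ± 0.23, edgeR adjusted p = 0.291). The lowest bovine gene of this side was NUP214 (-0.56 ± 0.50), and the highest mouse one was Ranbp2 (0.49 ± 0.29), which forms the cytoplasmic filaments. The 3 mouse genes of the nuclear basket all had values above 0: Nup153 at 0.60 ± 0.33, Tpr at 0.28 ± 0.21 and Nup50 at 0.11 ± 0.27. Tpr had 304 RPM in mESC and 426, 345 and 371 RPM in the heterokaryons. The bovine basket genes ranged from -0.01 for TPR to 0.15 for NUP50. Mouse Nup98, a mobile nucleoporin found on both sides of the pore, had 47.3 RPM in mESC and 34.6, 50.3 and 39.2 RPM (-0.24 ± 0.33). The longest of its 5 listed transcripts took 55.8% of its reads in mESC and 77.4%, 77.0% and 70.8% in the heterokaryons, of 163 reads or fewer a library.

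By time, with 1 library a group and no test, members that differed from the control by at least 2-fold on log2(CPM + 1) were counted. Of the bovine members 5, 7 and 9 were at least 2-fold higher at 24, 48 and 72 h (all genes 13.4%, 11.8% and 12.9%), and 3, 2 and 2 were at least 2-fold lower (all genes 14.5%, 14.8% and 15.1%). LMNB1 was among the higher at all 3 times, and LMNA, AAAS, IPO7 and NUP35 at 48 and 72 h. IPO8 was among the lower at all 3 times. The places of LMNB1 and IPO8 are partly set by the filter, as given above. The same holds for NUP188 and XPO4, which were among the higher at 24 h. It also holds for IPO13 and XPO4, which were among the higher at 72 h. Of the mouse members 2, 3 and 1 were higher (all genes 8.35%, 5.85% and 3.77%) and 4, 2 and 2 lower (all genes 7.59%, 6.64% and 4.87%). The higher ones were Lmna and Nup205 at 24 h, Kpna4, Kpnb1 and Nup205 at 48 h, and Kpna4 at 72 h. Most of the Kpna4 reads may not be mouse reads, as given above. The lower ones were Kpna1, Nup133, Nup62 and Nup93 at 24 h, Kpna1 and Rcc1 at 48 h, and Ipo9 and Xpo5 at 72 h.

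Levels of different genes can be set side by side only per length, and this was done for the mouse with GENCODE M21 transcript lengths, as RPM per kilobase of transcript (RPKM) in mESC. The Ran cycle genes Ranbp1 and Ran led, with Ranbp1 at 1145 and Ran at 881 RPKM, and Kpna2 followed at 501 RPKM. Of the nucleoporins among the members, the most abundant were Nup37 (151 RPKM), Nup43 (127 RPKM) and Nup85 (118 RPKM) of the Y complex, and Nup88 (105 RPKM) of the cytoplasmic side. Pore genes outside the members were not ranked. In contrast Nup133 (23.3 RPKM) and Nup160 (16.0 RPKM), of the same Y complex, were read far less often. Kpnb1 stood at 14.0 RPKM, so in mESC Kpna2 was read far more often per length than the carrier it works with. At 24, 48 and 72 h Kpna2 had 288, 261 and 295 RPKM and Kpnb1 26.8, 29.0 and 22.3 RPKM. Of the lamins Lmnb1 had 17.4, Lmna 11.0 and Lmnb2 7.92 RPKM in mESC, and at 24 h Lmna was the highest of them with 43.8 RPKM. These are messenger levels of polyadenylated RNA from 200 cells, not protein levels.

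The difference between the nuclei was tested directly for 40 members with a shared name, as the interaction of species and fusion in an edgeR fit over 5642 orthologs. None of the 40 was called, with 0 higher and 0 lower in the bovine nucleus (all orthologs 3.01% and 1.63%). At an unadjusted p under 0.05 there were 7 (all orthologs 20.9%), and DESeq2 called 1, AAAS. The closest in edgeR were AAAS (bovine minus mouse log2 change 1.49 ± 0.42, adjusted p = 0.0625), NUP35 (1.47 ± 0.43, adjusted p = 0.0702) and LMNB1 (2.44 ± 0.72, adjusted p = 0.0731). All 3 differences were positive, that of LMNB1 for a gene that reached 10 CPM among bovine libraries in heterokaryons alone. CSE1L (1.32 ± 0.45, adjusted p = 0.111) had the same sign, and IPO8 (-2.29 ± 0.78, adjusted p = 0.114) the opposite one in the same edgeR fit. Among bovine libraries IPO8 reached 10 CPM in bFF alone, so the filter partly fixed its direction. For KPNA2 the difference was 0.74 ± 0.34 (edgeR adjusted p = 0.229), so the fall of the mouse gene was not shown to differ from the bovine values. For LMNA it was 0.47 ± 0.81 (edgeR adjusted p = 0.788), and without the 24 h library, where mouse Lmna was high, it was 1.52 with an adjusted p of 0.00127. KPNA4 (-1.93 ± 0.61, edgeR adjusted p = 0.0896) came to -0.03 once the wrongly listed reads were subtracted. By sign alone 9 of the 40 were above 0 in both nuclei and 11 below 0 in both. Another 13 were above 0 in the bovine and below 0 in the mouse, and 7 the reverse. This split was not counted over all orthologs, so it is not read as a result about the members. Of all genes tested 48.5% were above 0 in the bovine and 43.9% in the mouse fit. The 7 include KPNA4, whose mouse sign turned after subtraction. The filter partly fixed the bovine signs of IPO8, LMNB1, NUP188 and XPO4.

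**Figure D4:**
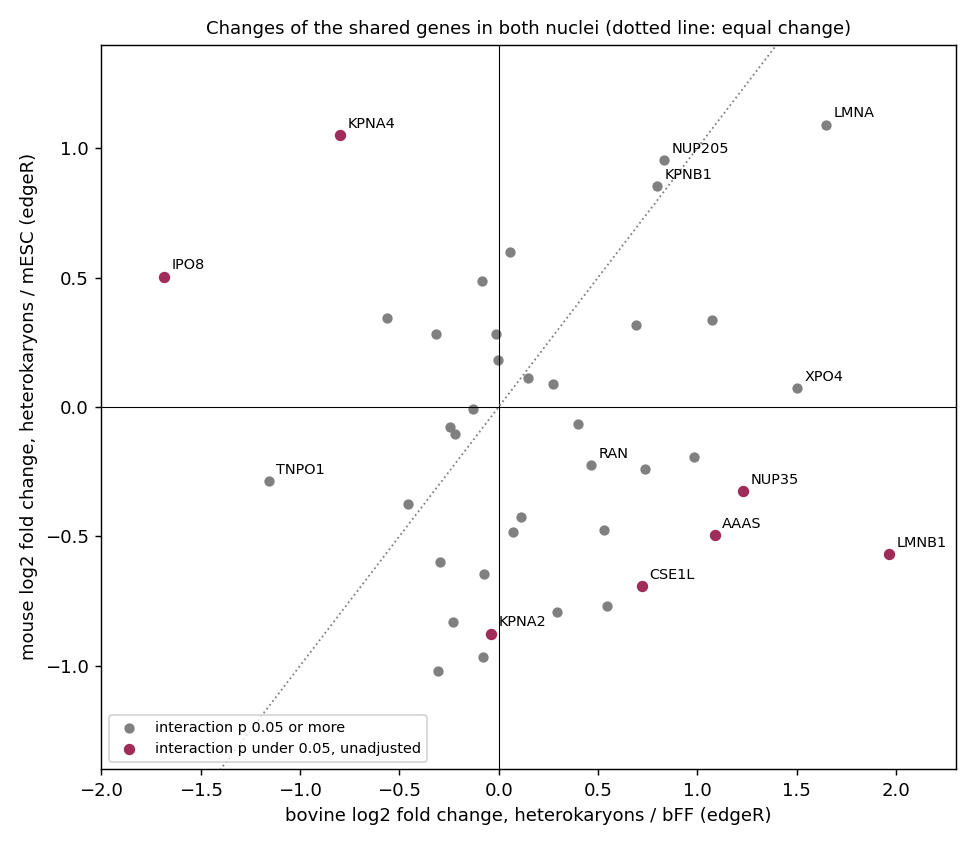
Log2 fold change of 40 shared members in the bovine table (x axis) and in the mouse table (y axis), each from the edgeR fit of that species; points are genes, and the 7 with an unadjusted interaction p under 0.05 are in red. LMNB1, LMNA, XPO4 and NUP35 lie farthest right, and IPO8 farthest left. The minimum of 10 CPM partly fixed the bovine directions of LMNB1, XPO4 and IPO8.

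Other genes of the same machinery were counted from 3 lists, to be read against the shares of all genes called (bovine 4.37% higher and 4.77% lower, mouse 0.576% and 0.406%). Of further pore and docking genes 7 bovine and 10 mouse ones were tested and 0 called. Of other carriers and export factors 26 bovine genes were tested, of which 1 was called higher and 1 lower. DDX39A, an RNA helicase of mRNA export, rose from 42.9 RPM in bFF to 90.6, 97.6 and 91.5 RPM (1.23 ± 0.35, edgeR adjusted p = 0.0456). PHAX, the adaptor that exports the RNAs of splicing particles, fell from 572 RPM to 243, 261 and 277 RPM (-1.02 ± 0.28, edgeR adjusted p = 0.0407). Of the mouse genes of this list 27 were tested and 0 called. Of the inner nuclear membrane and lamina partners 12 were tested in each table, and 1 was called, bovine NRM. NRM encodes nurim, an inner nuclear membrane protein, and rose from 31.1 RPM to 54.9, 118.6 and 104 RPM (1.70 ± 0.48, edgeR adjusted p = 0.0448).

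Markers of the parent cells and of dividing cells moved beside these genes. All 8 bovine fibroblast markers were below bFF in all 3 heterokaryon libraries (all bovine genes 36.6%), and 5 were called lower (all bovine genes 4.77%). Their summed level was 32881 RPM in bFF and 15831 to 16167 RPM afterwards. Of the 5 stem cell genes found in the bovine table, SOX2 and TDGF1 had 0 reads in all 4 libraries, NANOG had 2 reads in bFF and 0 afterwards, and KLF4 had 142, 80, 52 and 41 reads. POU5F1 had 0 reads in bFF and 23, 3 and 6 in the heterokaryons. All 8 bovine proliferation markers tested were above bFF in all 3 (all bovine genes 31.0%), and 4 were called higher (all bovine genes 4.37%). They summed to 263 RPM and then 756 to 1042 RPM. Of the 11 mouse proliferation markers 8 were below mESC in all 3 libraries (all mouse genes 38.8%), and 1 was called lower (all mouse genes 0.406%). The 11 summed to 4373 RPM and then 3067 to 3743 RPM. Of the 8 mouse stem cell markers 4 were below mESC in all 3 libraries (all mouse genes 38.8%) and 0 above, with Nanog called lower. Sox2, Esrrb and Tdgf1 had log2 fold changes above 0 (0.15, 0.45 and 0.12). The 8 summed to 18427 RPM in mESC and 15505 to 15929 RPM in the heterokaryons. Most of this was Dppa5a, with 14996 RPM in mESC and 12351, 12745 and 12557 RPM afterwards. Fibroblast markers listed as mouse summed to 4.06 RPM in mESC and 20.1 to 26.0 RPM in the heterokaryons, with Col1a2, Col3a1, Lum and Fap at 0. Most of that sum was Col1a1, with 1.74 RPM in mESC and 16.5, 17.9 and 15.8 RPM afterwards. The bFF library had 92 reads listed as mouse Col1a1, and the estimated wrongly listed share in the heterokaryons was 85.8%, 150% and 186%, above 100% where the estimate exceeds the reads. Mouse Thy1 had 0 reads in mESC and 9, 4 and 2 in the heterokaryons, with 0 in bFF. Mouse Pdgfra had 6 reads in mESC and 12, 6 and 4 afterwards, with an estimated 15.5%, 42.1% and 73.2% wrongly listed. Mouse Dcn had 2 reads in each of these libraries. The part of these shifts in the results above was not tested, and fewer cells of a type cannot be told apart from less RNA per cell.

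Besides Kpna4, other members also had reads listed under the wrong species, at an estimated share of 10% or less for most of those tested. The same shares were not counted over all genes. In the mESC library 27 of the 47 bovine members had 0 reads, and in the bFF library 33 of the 53 mouse members had 0. The estimated share of wrongly listed reads exceeded 10% for 8, 4 and 2 of the 42 bovine members tested at 24, 48 and 72 h, and for 1, 2 and 2 of the 50 mouse members. In the bovine table it was largest for XPO7, at 58.7% of 6 reads at 24 h, and for KPNA4, at 35.2% of 8 reads. The median member had an estimated share of 0 in every library.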

How the data were processed

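Per the file headers, the authors deposited whole read counts per RefSeq transcript for each library in a bovine and a mouse table, with the same values as RPM. Dividing the counts by the sum of their column gave back the deposited RPM, and the levels printed here come from the counts. The submitters' processing notes name the builds bosTau8, GRCm38 and mm10. Not given in the sources used here are the aligner, the counter, the use of strand and the way species were separated, so near-identical copies and overlapping genes are uncertain. No value of 1 occurs, and single reads may be among the 0 values. Starts are counted from 1. Gene names turned into dates were restored for 23 of 23 bovine and 57 of 60 mouse transcripts, and a totals line of the mouse table was left out.

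Counts were summed by gene name (14234 bovine and 35814 mouse transcripts) and tested with edgeR 4.0.16 (quasi-likelihood, TMM scaling) in R 4.3.3, with DESeq2 1.42.0 as the alternative. The interaction of species and fusion used 8 columns, in which both columns of a fused library come from the same cells. Wrongly listed reads were estimated from the control of the other species, multiplied by the ratio of its reads in the heterokaryon library to those in that control, on the assumption that its gene kept its control level. Intervals are at 95%, and they and the limit of 3 reads for a count of 0 cover counting error only, since amplified reads are not independent molecules (14 cycles).

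The members and lists were chosen with earlier results of these data known. Named by rule were RAN, KPNB1, XPO1, KPNA2, the lamins, every called member and the highest and lowest member of each role in each table. The other genes given with values were named after their values were seen. Alternatives were other scalings, filters, pseudocounts and folds, subtraction of wrongly listed reads, time as a term, and leaving out each heterokaryon library. Python 3.11.15 (pandas 2.3.3, scipy 1.17.1, matplotlib 3.10.9) was used for counting and drawing. The coding end of 1 further lamin transcript is not reported here.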

Additional observations from a re-analysis of the deposited data

Results flagged for a closer look

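Reads outside the main comparisons stood out in 1 case. The unfused bFF library, which holds no mouse cells by its label, had 160 reads listed as mouse Kpna4, more than the 84 mouse Kpna4 reads of the mESC library itself. The same bFF library had 52 reads listed as bovine KPNA4, so 75.5% of its KPNA4 reads (95% exact binomial interval 69.1 to 81.1) were listed under the mouse. In the mESC library 4 reads were listed as bovine KPNA4, or 4.55% (1.25 to 11.2). The part of sequence identity, annotation and counting in this was not tested.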

How the results depend on the processing

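No paired analysis was possible because, within a species, each group is 1 library and the labels give no replicate numbers. In the interaction both columns of a fused library come from the same cells, and time as a term shared by them left 0 orthologs higher and 0 lower. Of the member counts and shares, 94 recomputed values stayed within their limits and 46 did not. Leaving out 1 heterokaryon library each gave 0 to 5 bovine members higher and 0 to 1 lower, 0 to 2 mouse members higher and 0 to 7 lower, and 0 to 5 orthologs higher and 0 to 2 lower in the bovine nucleus. The 5 bovine members (AAAS, CSE1L, IPO7, LMNA, NUP35), the lower one (IPO8) and the 5 and 2 orthologs came without the 24 h library, 5 mouse members lower (Kpna1, Kpna2, Nup107, Nup62, Rcc1) and 2 higher (Kpna4, Kpnb1) also without it, the 7 mouse members (Cse1l, Kpna1, Kpna2, Nup107, Nup133, Nup62, Nup93) without the 72 h library, and 0 bovine and 0 mouse calls without the 48 h library. At 50 CPM 0 bovine members were higher, as against 1, and 1 ortholog was higher with DESeq2 (AAAS) and with no filter (RANGAP1), as against 0. For the bovine 2-fold counts, 5 at 24 h higher became 1 at 50 CPM and 0 at 4-fold. At 24 h the 3 lower became 0 with a pseudocount of 5, at 50 CPM and at 4-fold, and 5 after subtraction of wrongly listed reads. At 48 h the 7 higher became 4 with the pseudocount and with library totals, 3 at 50 CPM and 0 at 4-fold, and the 2 lower became 0 at 50 CPM and at 4-fold. At 72 h the 9 higher became 4 at 50 CPM and 2 at 4-fold, and the 2 lower became 1 with the pseudocount and at 4-fold and 0 at 50 CPM. For the mouse 2-fold counts, the 2 higher at 24 h became 1 with the pseudocount and 0 at 4-fold, and the 4 lower became 0 at 4-fold. At 48 h the 3 higher and 2 lower became 0 with the pseudocount and at 4-fold, and the lower 1 with library totals. At 72 h the 1 higher became 0 after subtraction and at 4-fold, and the 2 lower 0 with the pseudocount, with library totals and at 4-fold. The mouse KPNA2 shares became 78.3%, 77.1% and 77.5% after subtraction. Among single members 701 values kept sign and call, 23 gained and 3 lost a call and 22 changed sign, mostly near 0. With DESeq2 these were bovine KPNA2 (0.011) and TPR (0.038) and mouse Lmnb2 (0.026) and Ranbp1 (0.036). TPR was 0.013 with DESeq2 size factors in edgeR and 0.015 after subtraction, and mouse Kpna4 was -1.10 after subtraction. Leaving out 1 library each gave ranges across 0 for bovine KPNA2 (-0.13 to 0.073), NUP155 (-0.023 to 0.42), NUP160 (-0.0093 to 0.77), NUP62 (-0.38 to 0.22), NXF1 (-0.28 to 0.21) and TPR (-0.066 to 0.032), and for mouse Lmnb2 (-0.30 to 0.12) and Ranbp1 (-0.11 to 0.0016). The ranges of the interaction were -0.51 to 0.078 for IPO5, -0.071 to 1.52 for LMNA, -0.23 to 0.40 for NUP155, -0.66 to 0.041 for NUP205, -0.37 to 0.084 for NUP37, -0.23 to 0.080 for NUP50 and -0.51 to 0.24 for XPO7. The cause was not tested, except that a higher minimum tests fewer genes and fewer libraries enter where 1 is left out. Depth limits genes with few bovine reads most, such as LMNB1, XPO4 and RANGAP1.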
